A study of Mus musculus with 6 samples.

Results

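Chemokines are small secreted proteins that draw leukocytes towards their source through receptors coupled to G proteins, and the spacing of their first cysteines divides them into CC (Ccl) and CXC (Cxcl) families. In white fat they are made by macrophages, stromal progenitor cells, endothelium and adipocytes, and they are best known there for bringing monocytes, T cells and eosinophils into the tissue. The 10 genes described here were taken by name and not by a measured value, but earlier results of these data were known. They include Ccl2, Ccl7 and Cxcl1, which attract monocytes and neutrophils, and Ccl6, Ccl8 and Ccl9, which resident macrophages make in quantity. The others are Cxcl14, the eosinophil attractant Ccl11 (eotaxin), and Cxcl9 and Cxcl10, which interferon-gamma induces. All 10 were among the 14861 genes of the deposited table, and all 10 passed the filter for testing, as did 12993 genes in all.

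Messenger RNA of inguinal white adipose tissue, a subcutaneous pad, was sequenced in 3 AdIGF1RKO and 3 Flox libraries. AdIGF1RKO mice came from a cross of a floxed Igf1r line (B6;129-Igf1rtm2Arge/J) with the Cre line FVB-Tg (Adipoq-Cre)1Evdr/J on B6, so that Cre under the adiponectin promoter is to delete Igf1r, the receptor gene for insulin-like growth factor 1, in adipocytes. Flox mice were littermates, so both groups carry the floxed Igf1r gene. Normal chow, in which fat gives 10% of the energy, was fed to all mice during 24 weeks, and an overnight fast and Avertin anesthesia preceded dissection in both groups. Immune, vascular and progenitor cells of the pad keep Igf1r, and the sources used here state neither age nor sex, nor whether each library holds a single mouse.

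Levels are given as scaled CPM, recovered reads scaled between libraries by median ratios, as CPM are per library, and differences as AdIGF1RKO minus Flox on the log2(scaled CPM + 1) scale. Recovered reads over the genes of the table summed to between 60617147 and 70695527 per library, and 1 read was worth 0.0130 to 0.0207 scaled CPM. The adipocyte markers that check the tissue were high in all libraries, with Adipoq at 3348, 4072 and 4214.5 scaled CPM in AdIGF1RKO, and at 3799, 3819 and 4927 in Flox, from lowest to highest. Igf1r had 6.11, 5.27 and 4.85 scaled CPM in AdIGF1RKO, against 6.44, 6.47 and 5.86 in Flox, and these groups overlapped at a log2 difference of -0.18 (SE 0.12, limma adjusted p = 0.998). Reads were summed over the whole gene and the sources used here do not state which part is deleted. Skeletal muscle markers, 10 of 10 in the table, made up 3.46% of the recovered reads of AdIGF1RKO 3 and 9.50% of those of Flox 3. In the other 4 libraries their share was 0.0283% to 0.644%. AdIGF1RKO 2 stood apart in genes of lipid-associated macrophages: Trem2 reached 62.8 scaled CPM there, against a highest value of 12.1 among the remaining 5. In tissue RNA, fewer cells of a type and less RNA per cell cannot be told apart.

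None of the 10 chemokines passed the limma test over all genes, and 0% of the 12993 tested genes did (adjusted p = 0.998 for each of the 10). At an unadjusted p under 0.05 limma took 2.96% of tested genes, 1.83% higher and 1.13% lower in AdIGF1RKO, and 1 of the 10 chemokines, Ccl2. With the library number as a block, the adjusted limma p of the 10 was 0.914 or more. edgeR's quasi-likelihood test called 0 genes at an adjusted p under 0.05, with 3.07% of its genes at an unadjusted p under 0.05 (1.88% higher and 1.19% lower) and 1 of the 10 chemokines, Ccl2. DESeq2 called 25 genes (0.183%), none of them among the 10, with 3.88% at an unadjusted p under 0.05 (2.21% higher and 1.68% lower) and 3 of the 10 chemokines, Ccl2, Ccl7 and Cxcl1. The estimate was positive for 7 chemokines and negative for 3, with a median of 0.10, while 44.8% of all tested genes were positive with a median of -0.019. The median of the 10 was -0.057 with the values as deposited (4 positive and 6 negative), -0.019 without Flox 3 and -0.084 without both muscle-rich libraries (5 positive and 5 negative in each). The groups did not overlap for 2 of the 10, Ccl2 and Ccl7, both with AdIGF1RKO higher. Among all tested genes 8.27% did not overlap, 4.41% with AdIGF1RKO higher and 3.86% with it lower. An exact two-sided permutation test of 3 against 3 cannot give a p below 0.1.

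**Figure D1:**
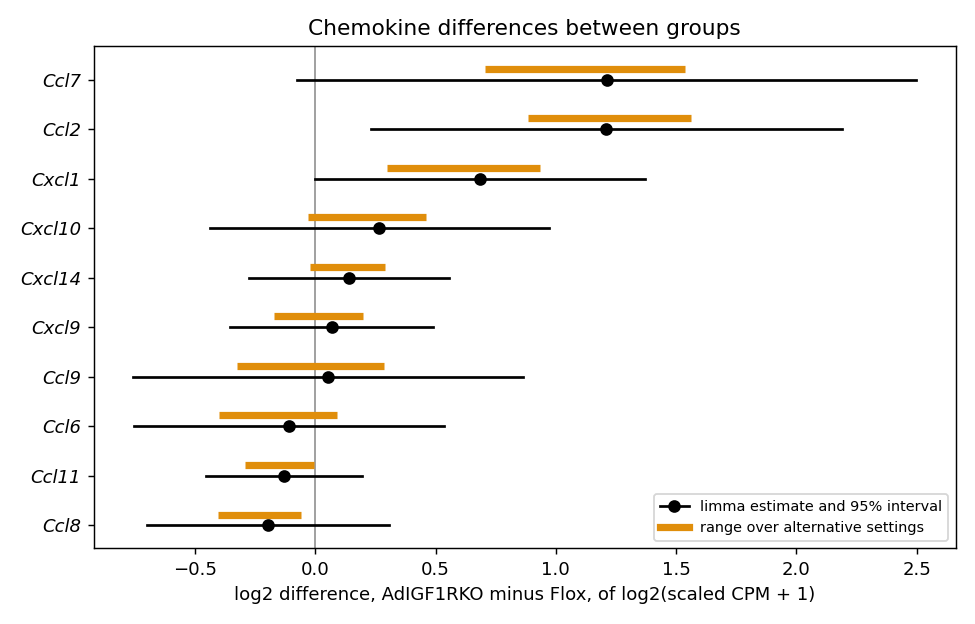
Log2 difference of each chemokine (x axis, AdIGF1RKO minus Flox on the log2(scaled CPM + 1) scale) with its 95% interval from limma in black, and the range of the estimate over the alternative settings in orange. Ccl2 and Ccl7 sit at 1.21 and Cxcl1 at 0.68, and the other 7 lie between -0.20 and 0.27. Before adjustment the interval of Ccl2 lies above 0, and those of Ccl7, Cxcl1 and the other 7 include 0.

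Per length of mRNA, the chemokine transcripts of this fat spanned a wide range of levels, led by Ccl8 and Ccl6. Levels per kilobase used the longest protein-coding transcript of each gene in GENCODE M21. Ccl8 averaged 687 ± 112 scaled CPM per kilobase in AdIGF1RKO and 797 ± 187 in Flox (SD, n = 3 each), and it made up 53.2% of the summed mean level of the 10. Ccl6 averaged 315 ± 49.2 in AdIGF1RKO and 351 ± 114 in Flox on the same scale. Ccl11 followed with 136 ± 13.2 in AdIGF1RKO and 150 ± 21.2 in Flox. These first 3 kept their order in 6 of 6 libraries, and their ranges over the libraries did not overlap. The order of Ccl8 and Ccl6 depends on the lengths used, 511 and 1440 bases. Without division by length Ccl6 was above Ccl8, with means of 454 and 351 scaled CPM in AdIGF1RKO and 505 and 407 in Flox.

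Next came Ccl9, with 68.3 ± 13.9 per kilobase in AdIGF1RKO and 69.2 ± 27.3 in Flox, and Cxcl14, with 62.4 ± 13.0 in AdIGF1RKO and 56.1 ± 6.40 in Flox. Ccl9 was the higher of the pair in 3 of 6 libraries, and with the shortest Cxcl14 transcript Cxcl14 would come first. Ccl2, Cxcl9, Ccl7 and Cxcl10 had overlapping ranges between 1.91 and 32.2 per kilobase and no fixed order among them. Cxcl1 was lowest, with 3.36 ± 0.898 per kilobase in AdIGF1RKO and 1.76 ± 0.956 in Flox. The 3 chemokines with the largest differences between groups, Ccl2, Ccl7 and Cxcl1, were thus among the 5 of lowest level.

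**Figure D2:**
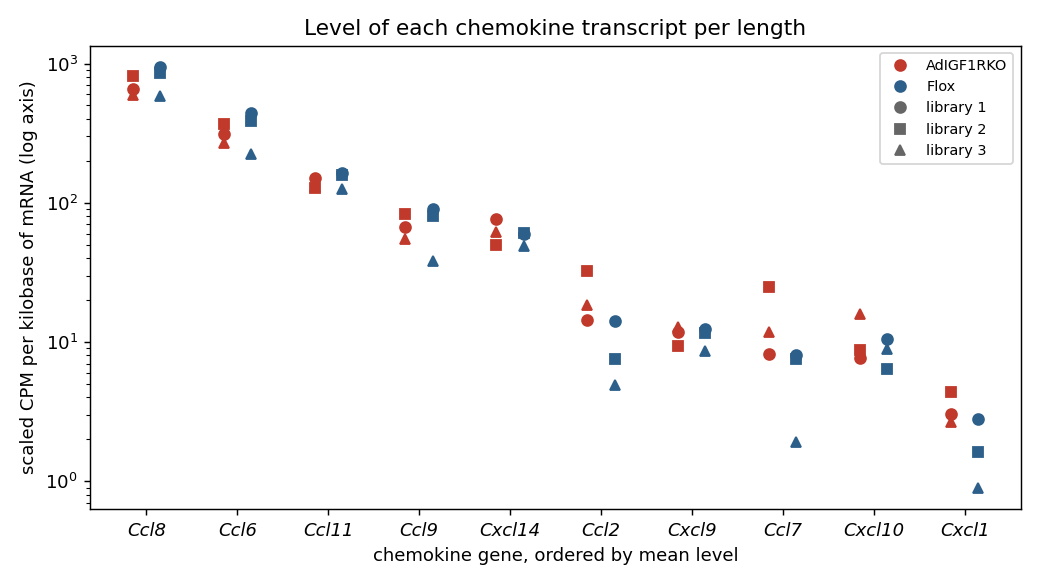
Level of each chemokine transcript in scaled CPM per kilobase of mRNA (log axis), with AdIGF1RKO libraries in red to the left of Flox libraries in blue and a symbol for each library number. Ccl8 lies above 586 in every library, and Cxcl1 lies at 4.38 or below.

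Ccl2, also called MCP-1, and its neighbour on chromosome 11 Ccl7, or MCP-3, are ligands of Ccr2 and draw monocytes out of the blood. Ccl2 had 11.6, 26.2 and 14.9 scaled CPM in AdIGF1RKO 1, 2 and 3, against 11.4, 6.10 and 3.999 in Flox 1, 2 and 3. The groups did not overlap, but AdIGF1RKO 1 was only 1.02 times Flox 1, and the highest value was in AdIGF1RKO 2 and the lowest in Flox 3. The ratio of means was 2.45 and the log2 difference 1.21 (SE 0.41, 95% interval 0.23 to 2.19, unadjusted limma p = 0.0226, exact permutation p = 0.1). With the values as deposited the groups overlapped, since AdIGF1RKO 1 was then 0.904 times Flox 1. Without AdIGF1RKO 2 the log2 difference was 0.90, and without Flox 3 it was 0.91.

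Ccl7 had 6.55, 20.0 and 9.50 scaled CPM in AdIGF1RKO, against 6.51, 6.04 and 1.53 in Flox. The order of libraries was that of Ccl2 in its extremes, and the groups were separated by a ratio of only 1.01 between AdIGF1RKO 1 and Flox 1. Its ratio of means was 2.56, and its log2 difference was 1.21 (SE 0.54, 95% interval -0.077 to 2.499, unadjusted limma p = 0.0613, exact permutation p = 0.1). The deposited values again gave overlapping groups, and the log2 difference was 0.80 without AdIGF1RKO 2 and 0.70 without Flox 3. A ratio of means of at least 2 towards AdIGF1RKO occurred in 0.477% of all tested genes, and in Ccl2 and Ccl7 among the 10.

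Cxcl1, the mouse counterpart of GRO chemokines, recruits neutrophils through Cxcr2. It had 2.88, 4.17 and 2.55 scaled CPM in AdIGF1RKO, against 2.66, 1.54 and 0.850 in Flox, on 41 to 295 reads per library. Flox 1 lay above AdIGF1RKO 3, so the groups overlapped, and AdIGF1RKO 2 was again highest and Flox 3 lowest. The log2 difference was 0.68 (SE 0.29, 95% interval -0.0032 to 1.37, unadjusted limma p = 0.0508, exact permutation p = 0.2). Without Flox 3 the log2 difference of Cxcl1 was 0.44 and without AdIGF1RKO 2 it was 0.52. A fit with the library number as a block used a pairing that the labels do not state. Its unadjusted limma p was 0.0225 for Ccl2, 0.0257 for Ccl7 and 0.0310 for Cxcl1, and its adjusted limma p was 0.914 for each. The share of all tested genes at an unadjusted p under 0.05 was not counted for the block fit, so these values lack a background. The exact permutation test was run with no block. Ccl2, Ccl7 and Cxcl1 were the only 3 of the 10 chemokines with their highest value in AdIGF1RKO 2, the highest library for 19.9% of all tested genes.

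**Figure D3:**
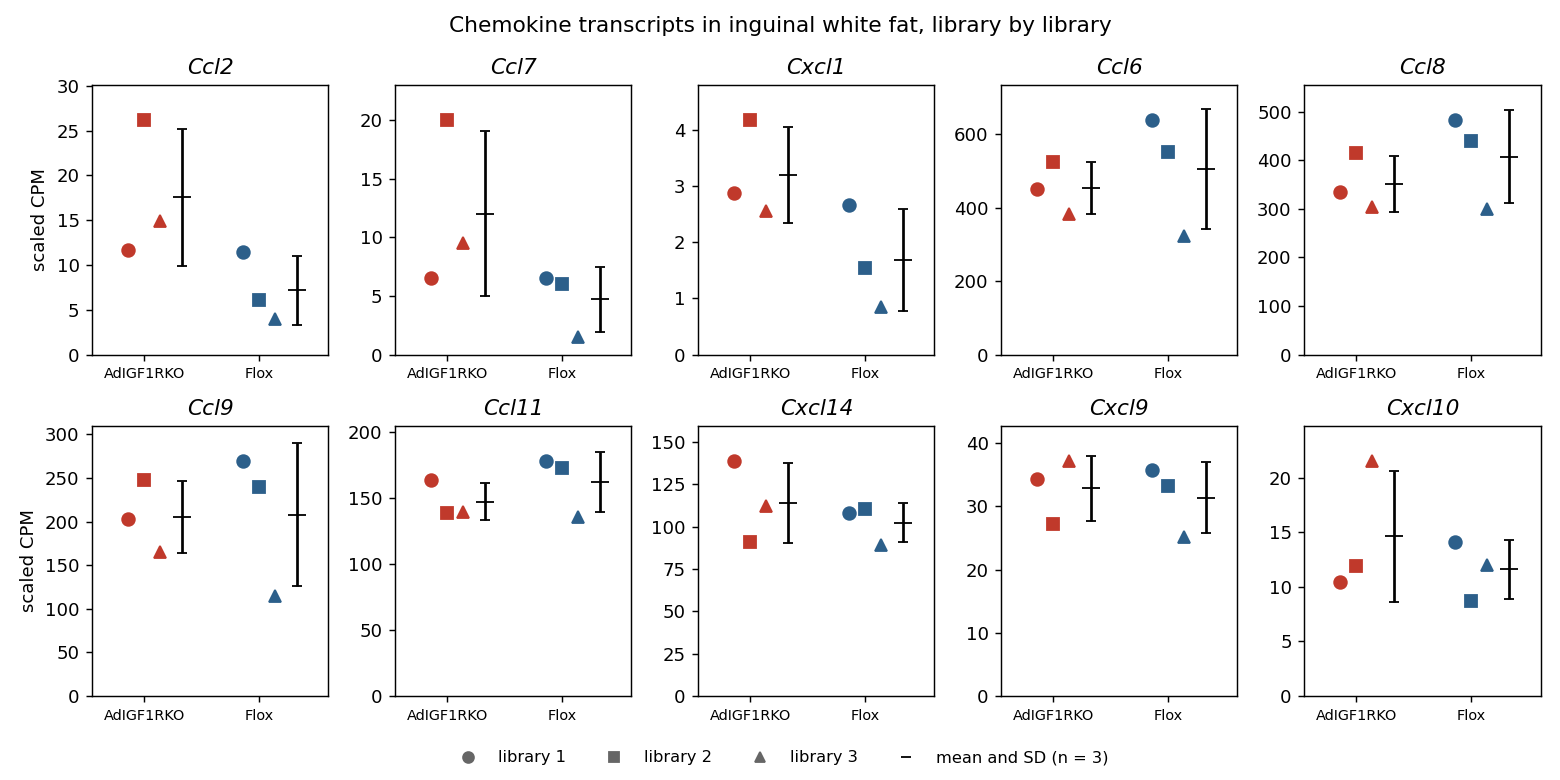
Scaled CPM of the 10 chemokines in each library (y axes from 0), AdIGF1RKO in red to the left of Flox in blue, with a symbol for each library number and bars for the mean and SD of 3 libraries. For Ccl2 the AdIGF1RKO points span 11.6 to 26.2 and the Flox points 3.999 to 11.4, while for Ccl6, Ccl8 and Ccl9 the AdIGF1RKO points fall within the Flox range.

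Markers of the cells that these 3 chemokines attract were read beside them. The macrophage and monocyte list, 15 of 15 genes in the table, summed to 678 to 1340 scaled CPM in AdIGF1RKO and to 639 to 939 in Flox. The sum was highest in AdIGF1RKO 2, where Spp1 reached 182, Mmp12 121, Gpnmb 96.9 and Trem2 62.8, and lowest in Flox 3. In Flox 1 these genes had 10.1, 2.53, 21.8 and 7.42. Of the 15 genes, 8 were highest in AdIGF1RKO 2 and the other 7 in Flox 1 or Flox 2. Among the latter, the monocyte marker Ly6c2 had 27.1 in Flox 1 and 22.7 in AdIGF1RKO 2. Ccr2, the receptor of Ccl2 and Ccl7, had 22.3, 41.3 and 26.2 scaled CPM in AdIGF1RKO, against 34.5, 21.3 and 14.3 in Flox, with overlapping groups. The 4 neutrophil markers in the table, of 8 listed, summed to 18.1 to 41.9 in AdIGF1RKO and to 14.6 to 20.0 in Flox. The sum was again highest in AdIGF1RKO 2, where S100a8 (22.8) and S100a9 (13.1) made up most of it. Csf3r had a log2 difference of 0.046, and Cxcr2 was at most 0.477 in any library. Ly6g, Mpo, Ngp and Camp were not in the table, which holds only genes with at least 1 read in every library. Their levels are thus not known. The part of these cells in the chemokine differences was not tested.

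The genes whose profile over the 6 libraries was most like that of Ccl2 and Ccl7 were sought by the root mean square difference of centred log2 levels. Bcl2a1b, a survival gene of leukocytes with near-identical copies among which reads may be split, was nearest to both, at 0.19 for Ccl2 and 0.26 for Ccl7. It had 6.74, 19.2 and 11.1 scaled CPM in AdIGF1RKO, against 9.79, 5.63 and 2.71 in Flox, where AdIGF1RKO 1 lay within the Flox range. Dnmt3l (0.31) and Tmem254 (0.32) came next for Ccl2, and Acot1 (0.44) and Plppr4 (0.45) for Ccl7. For Cxcl1 the nearest were Nfkbid, an IκB family gene, at 0.14, Il21r at 0.14 and Ccnb2, a mitotic cyclin, at 0.15. Their levels were low, at 0.332 to 1.95, 0.435 to 2.04 and 0.642 to 3.61 scaled CPM. At such levels the 1 added before the log2 narrows differences. These likenesses rest on 6 libraries that share their scaling and are descriptions only.

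The chemokine promoters are a place where signals of inflammation are read, and those of Cxcl1, Cxcl9 and Cxcl10 are shown because the first belongs to the trio above and the others are the interferon-induced pair. RefSeq promoters were at hand for 7 of the 10 genes (build GRCm38.p6), and the 250 bases before the start of each were searched on both strands for the NF-kB consensus by name, for the interferon-stimulated response element, written as GAAA, any 2 bases and GAAA again, and for the gamma-activated site TTCNNNGAA. The windows lie at chr5:90890995-90891244 on the plus strand for Cxcl1, chr5:92328080-92328329 on the minus strand for Cxcl9 and chr5:92348890-92349139 on the minus strand for Cxcl10. Matches are in capitals, 5′ to 3′.
Cxcl1: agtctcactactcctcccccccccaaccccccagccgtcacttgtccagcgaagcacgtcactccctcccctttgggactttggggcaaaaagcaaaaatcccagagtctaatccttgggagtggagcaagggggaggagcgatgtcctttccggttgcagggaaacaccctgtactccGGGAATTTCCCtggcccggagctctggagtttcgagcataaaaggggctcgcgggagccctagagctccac
Cxcl9: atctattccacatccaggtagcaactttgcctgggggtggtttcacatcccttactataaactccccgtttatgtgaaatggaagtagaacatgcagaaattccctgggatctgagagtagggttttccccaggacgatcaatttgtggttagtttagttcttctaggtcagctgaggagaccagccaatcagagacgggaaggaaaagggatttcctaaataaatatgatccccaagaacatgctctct
Cxcl10: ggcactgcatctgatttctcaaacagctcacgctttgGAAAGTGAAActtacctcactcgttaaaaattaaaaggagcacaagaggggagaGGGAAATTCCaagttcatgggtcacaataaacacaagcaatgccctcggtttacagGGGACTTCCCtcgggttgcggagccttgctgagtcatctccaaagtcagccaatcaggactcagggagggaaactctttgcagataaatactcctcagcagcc
Cxcl1 held an NF-kB consensus on each strand, which overlap in a single stretch, Cxcl10 held 2 and Ccl9 held 1, and 3.9% of all 32851 promoter windows of the same length held any. The interferon-stimulated response element matched in Cxcl10 and Cxcl14 and in 2.98% of all windows. The gamma-activated site matched in Cxcl14 and in 7.02% of all windows. Ccl6, Ccl8 and Cxcl9 held none of these 3 motifs in this window, which says only that these letters are not there. For Ccl2, Ccl7 and Ccl11 no promoter was at hand, so they were not searched.

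Genes that induce chemokines through NF-kB, or feed back on it, were read as a list. Of 20 listed genes 16 were tested, 7 were positive and 9 negative with a median log2 difference of -0.0022, and 0 passed limma. Nfkbia, which encodes the inhibitor IκBα, had 94.95, 97.3 and 93.4 scaled CPM in AdIGF1RKO, against 111, 102 and 102 in Flox. The groups of Nfkbia did not overlap, with the AdIGF1RKO libraries below, at a log2 difference of -0.14 (95% interval -0.33 to 0.052). Relb had a log2 difference of -0.19 and Rela, the p65 subunit, one of -0.097, and in both the groups overlapped.

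Ccl6, Ccl8 and Ccl9 encode CC chemokines that macrophages of mouse tissue express without a strong stimulus; Ccl6 and Ccl9 act on Ccr1 and mouse Ccl8 on Ccr8. Ccl6 had 451, 526 and 384 scaled CPM in AdIGF1RKO, against 639, 553 and 323 in Flox. Flox 1 and Flox 2 were above all 3 AdIGF1RKO libraries and Flox 3 was below them. The log2 difference of Ccl6 was -0.11 (SE 0.27, 95% interval -0.75 to 0.54), and without Flox 1 it was 0.090.

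Ccl8 had 335, 415 and 303 scaled CPM in AdIGF1RKO, against 483, 439 and 300 in Flox. Its libraries followed the same pattern, with Flox 1 and Flox 2 highest and Flox 3 lowest, at a log2 difference of -0.20 (SE 0.21, 95% interval -0.70 to 0.31). Ccl9 had 203, 248 and 165 scaled CPM in AdIGF1RKO, against 269, 240 and 115 in Flox. Flox 1 was highest and Flox 3 lowest, and the log2 difference was 0.053 (SE 0.34, 95% interval -0.76 to 0.87). It was -0.33 without Flox 3 and -0.093 without AdIGF1RKO 2.

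Among all pairs of the 10 chemokines, Ccl6 and Ccl8 had the most alike profiles, with a root mean square log2 difference of 0.10 over the 6 libraries, and Ccl6 and Ccl9, which are neighbours on chromosome 11, came next at 0.13. Ccl2 and Ccl7 differed by 0.31 on the same measure. Slfn1 (0.13) and Was (0.14) were among the genes whose profiles were nearest to that of Ccl9. Was encodes the actin regulator WASP of blood cells.

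Of the 15 macrophage and monocyte markers, 9 were lowest in Flox 3, 8 were highest in AdIGF1RKO 2 and the other 7 were highest in Flox 1 or Flox 2. Cd163 and Lyve1, chosen after their values were seen, were high in Flox 1 and Flox 2. Cd163, a scavenger receptor, had 146, 107 and 108 scaled CPM in AdIGF1RKO, against 176, 179 and 102.5 in Flox, and Lyve1 had 59.96, 63.1 and 43.3 in AdIGF1RKO, against 86.0, 84.8 and 36.9 in Flox. Over the macrophage and monocyte list, the median log2 deviation from the 6-library mean was 0.011, 0.26 and -0.32 in AdIGF1RKO, against 0.25, 0.0094 and -0.37 in Flox. The part of macrophage content in the levels of Ccl6, Ccl8 and Ccl9 was not tested. Flox 3, the library with most muscle RNA, was the lowest for 9 of the 10 chemokines and for 26.2% of all tested genes. The part of muscle RNA in this was not tested.

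**Figure D4:**
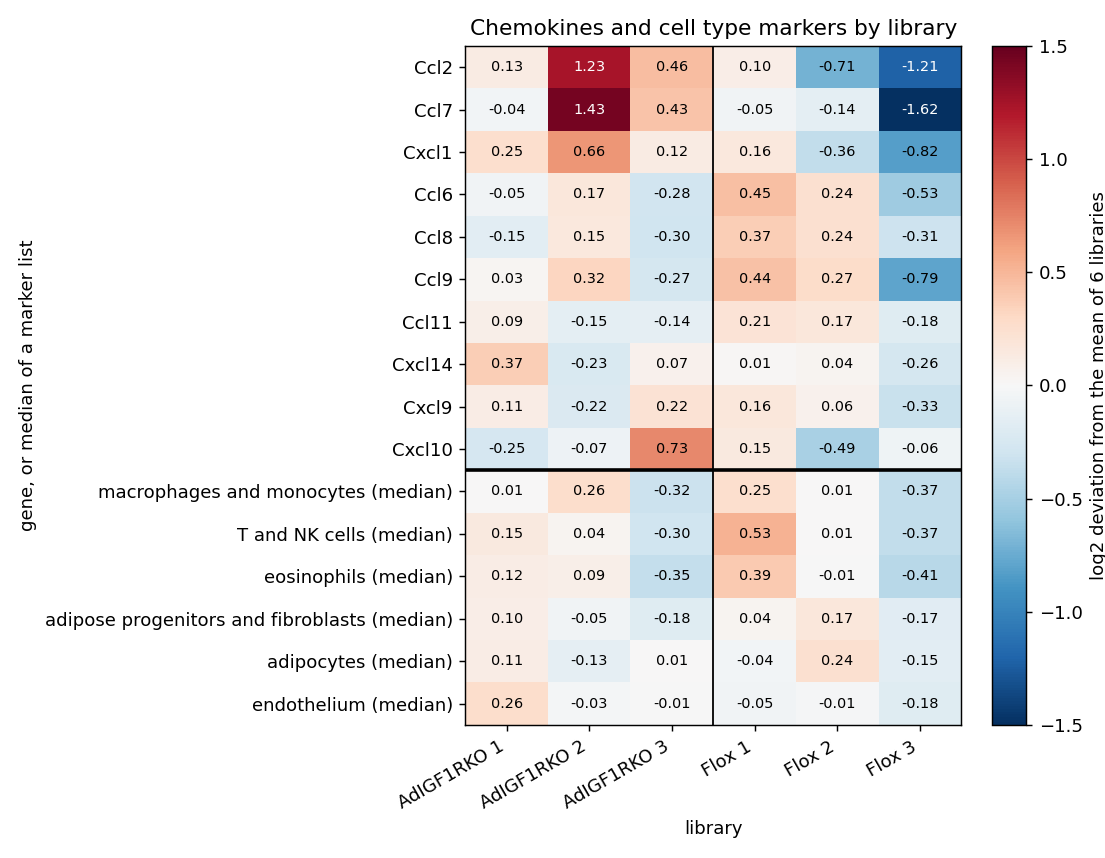
Log2 deviation of each chemokine from its mean over 6 libraries (rows above the line) and the median deviation of 6 marker lists (rows below), with the AdIGF1RKO libraries left of the Flox libraries. Flox 3 is negative for all 10 chemokines, from -0.065 for Cxcl10 to -1.62 for Ccl7, and for all 6 lists, and AdIGF1RKO 2 holds the highest values of Ccl2 and Ccl7.

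Ccl11, or eotaxin, attracts eosinophils through Ccr3 and is made in fat mostly by stromal cells. It had 164, 139 and 140 scaled CPM in AdIGF1RKO, against 178, 172 and 136 in Flox. The groups overlapped because of Flox 3, and Ccl11 had the smallest spread of the 10, with its highest library 1.31 times its lowest. The log2 difference was -0.13 (SE 0.14, 95% interval -0.46 to 0.20). With the values as deposited its AdIGF1RKO libraries lay below its Flox libraries, without overlap. Its receptor gene Ccr3 had 2.72, 3.01 and 1.65 in AdIGF1RKO, against 4.20, 1.91 and 3.81 in Flox. The 5 eosinophil markers in the table, of 6 listed, summed to 61.1 to 66.2 in AdIGF1RKO and to 37.3 to 73.3 in Flox, and the groups overlapped. Ear2, an eosinophil-associated ribonuclease, made up most of this sum, with 60.4, 54.8 and 60.4 in AdIGF1RKO, against 64.7, 45.7 and 31.3 in Flox. Of the 4 markers tested, Ear2 (0.36) and Prg2 (0.11) had positive log2 differences, and Siglecf (-0.33) and Ccr3 (-0.29) negative ones.

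Type 2 immunity, which maintains eosinophils and alternatively activated macrophages in lean fat, showed 3 positive and 6 negative genes among 9 tested, with a median log2 difference of -0.12 and 0 genes past the test. Il4 had 2.32, 1.70 and 1.34 scaled CPM in AdIGF1RKO, against 4.21, 1.98 and 2.55 in Flox, and the groups overlapped. Retnla, a product of alternatively activated macrophages, had 3762, 3309 and 3091 in AdIGF1RKO, against 5536, 4048 and 3113 in Flox. Siglecf, an eosinophil lectin, had 1.18, 1.13 and 0.520 in AdIGF1RKO, against 1.99, 1.40 and 0.974 in Flox. In Il4, Retnla and Siglecf the highest library was Flox 1.

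Cxcl14 is a CXC chemokine that brown and beige adipocytes of mice release and that attracts macrophages. It had 139, 91.1 and 112 scaled CPM in AdIGF1RKO, against 108, 110 and 89.0 in Flox. AdIGF1RKO 1 was highest, AdIGF1RKO 2 lay near the lowest library, Flox 3, and the log2 difference was 0.14 (SE 0.17, 95% interval -0.27 to 0.55). Adipose progenitor and fibroblast markers, all 11 in the table, summed to 4127 to 4740 in AdIGF1RKO and to 4260 to 5114 in Flox.

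Cxcl9 and Cxcl10 bind Cxcr3 on activated T cells and NK cells. Cxcl9 had 34.4, 27.1 and 37.1 scaled CPM in AdIGF1RKO, against 35.8, 33.3 and 25.1 in Flox, and the log2 difference was 0.068 (SE 0.18, 95% interval -0.35 to 0.49). Both groups held a low and a high library, AdIGF1RKO 2 and Flox 3 being the low ones. Cxcl10 had 10.4, 11.9 and 21.5 in AdIGF1RKO, against 14.1, 8.72 and 12.0 in Flox. Here AdIGF1RKO 3 alone was high, and the other 5 libraries lay between 8.72 and 14.1. The log2 difference of Cxcl10 was 0.27 (SE 0.29, 95% interval -0.44 to 0.97), and it was -0.031 without AdIGF1RKO 3.

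Both genes were highest in AdIGF1RKO 3, and Cxcl9 was the nearest of the other 9 chemokines to Cxcl10, with a root mean square log2 difference of 0.36. Over all tested genes the profile of Cxcl10 was nearest to Adat3, Lactb2 and Morrbid, at 0.15 to 0.16. Of 18 genes of the interferon-gamma axis 16 were tested, 13 positive and 3 negative with a median log2 difference of 0.058, and 0 passed. Gbp5, an interferon-induced GTPase, had 12.0, 12.2 and 13.3 scaled CPM in AdIGF1RKO, against 11.8, 11.5 and 9.82 in Flox. Its groups did not overlap (log2 difference 0.16, 95% interval -0.10 to 0.43), but AdIGF1RKO 1 was barely above Flox 1. Overlap under other scalings was read for the 10 chemokines only. Gbp2 (0.21) and Iigp1 (0.23), which also encode interferon-induced GTPases, had overlapping groups. Ifng itself was at most 0.622 scaled CPM in any library and was not tested. Cxcr3 had 2.36, 2.80 and 1.92 in AdIGF1RKO, against 3.48, 3.54 and 1.74 in Flox, and the 11 T and NK cell markers summed to 29.9 to 42.0 in AdIGF1RKO and to 24.2 to 60.0 in Flox.

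The other chemokines of the table were read from lists of the gene families. Among other CC chemokines 10 were tested, 5 positive and 5 negative with a median log2 difference of -0.032, and among other CXC, CX3C and XC chemokines 8 were tested, 5 positive and 3 negative with a median of 0.0063. None of these 18 passed limma over all genes.

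Ccl22, a Ccr4 ligand made by dendritic cells and macrophages, had 1.21, 1.56 and 2.51 scaled CPM in AdIGF1RKO, against 1.00, 0.584 and 0.290 in Flox, without overlap (log2 difference 0.76, 95% interval 0.15 to 1.37). Cxcl16, a membrane-bound chemokine and ligand of Cxcr6, had 12.9, 13.2 and 9.49 in AdIGF1RKO, against 8.504, 8.84 and 8.06 in Flox, without overlap (log2 difference 0.43, 95% interval 0.078 to 0.78). Cx3cl1, or fractalkine, an endothelial ligand of Cx3cr1, had 4.49, 4.06 and 4.30 in AdIGF1RKO, against 3.39, 3.29 and 2.40 in Flox (log2 difference 0.40, 95% interval 0.044 to 0.75). These 3, named for the smallest unadjusted p in their lists, were the 3 of 18 tested other chemokines whose groups did not overlap with AdIGF1RKO higher, beside 1 of 18 with it lower, against 4.41% and 3.86% of all tested genes. Endothelial markers, 7 of 7 in the table, summed to 432 to 527 scaled CPM in AdIGF1RKO and to 380 to 432 in Flox, with 5 of 6 tested markers positive, and their part in the values of Cx3cl1 was not tested.

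Ccl24, or eotaxin-2, a second Ccr3 ligand, had 59.9, 50.5 and 49.6 scaled CPM in AdIGF1RKO, against 127, 88.8 and 53.4 in Flox. AdIGF1RKO 1 lay above Flox 3, so the groups overlapped (log2 difference -0.66, 95% interval -1.38 to 0.061). Ccl27a, for which a near-identical copy makes the division of reads uncertain, had 24.7, 24.2 and 27.9 in AdIGF1RKO, against 30.6, 28.0 and 38.1 in Flox, without overlap (log2 difference -0.31, 95% interval -0.64 to 0.015). Cxcl13, which guides B cells, had 32.4, 31.3 and 43.3 in AdIGF1RKO, against 37.5, 73.6 and 53.6 in Flox, with overlap at a log2 difference of -0.57. None of these 3 passed the test.

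The receptors were read in the same way. Of 7 receptors of the 10 chemokines 5 were tested, 2 positive and 3 negative with a median log2 difference of -0.19, led by Ccr2 at 0.38 with a 95% interval from -0.47 to 1.23. Of 11 other chemokine receptors 4 were tested and all 4 were positive with a median of 0.18, among them Ccr7 (0.31), Cxcr6 (0.19) and Cxcr4 (0.17). All 5 genes listed as atypical receptors were negative with a median of -0.078, with Ccrl2 at -0.014. The Ackr receptors bind chemokines without the usual signal and so scavenge or present them. Of these, Ackr2, a scavenger of CC chemokines, had a log2 difference of -0.17, Ackr3, a receptor of Cxcl12, -0.085, and Ackr1, which presents chemokines on venules, -0.043. None of the receptors passed limma and the groups of each tested receptor overlapped.

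**Figure D5:**
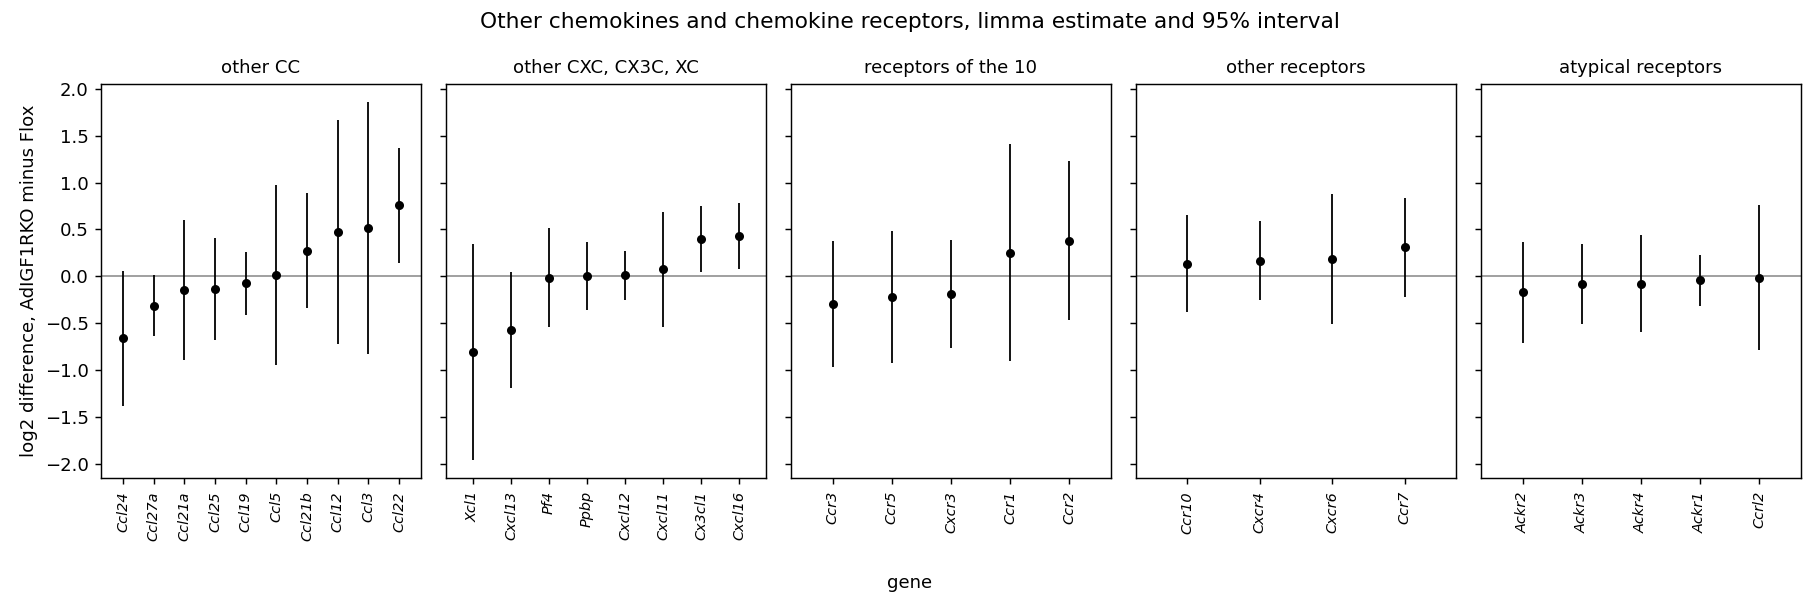
Log2 difference (y axis, AdIGF1RKO minus Flox) with its 95% limma interval for each tested gene of 5 lists of other chemokines and receptors. Ccl22, Cxcl16 and Cx3cl1 have intervals above 0 before adjustment, at 0.76, 0.43 and 0.40, and every receptor has an interval that includes 0.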

How the data were processed

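Signal values for 14861 genes in 6 libraries, called FPKM in the name of the authors' table, are read counts scaled per library. In each library 100.0% of values were, within a rounding tolerance of 0.5, a whole number of reads times a constant, over a divisor in steps of 1000 that ran from 39206000 (Flox 3) to 81802000 (AdIGF1RKO 1). They were not divided by gene length. Libraries were stranded and polyadenylated per the labels' protocols, and the submitters' processing notes name GRCm39. Aligner and counter: not given in the sources used here.

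Whole reads were recovered, divided by median-ratio size factors (0.731 in Flox 3 to 1.17 in AdIGF1RKO 1) and given as scaled CPM. The 12993 genes whose mean reached 1 were tested. limma 3.58.1 under R 4.3.3 compared the groups, on log2(scaled CPM + 1) with an intensity trend, two-sided, with Benjamini-Hochberg adjustment over all tested genes and a threshold of 0.05. This scale understates the change of low genes. Standard errors and intervals in the text come from this fit. edgeR (version 4.0.16) and DESeq2 (version 1.42.0) were run on the recovered reads. The main limma fit, edgeR and DESeq2 were also run on simulated data, and the other alternatives were not. P-values measure the spread between these libraries.

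The 10 genes, the gene lists and the tests were chosen with earlier results of these data known. Besides the 10 and Igf1r, up to 3 tested genes per list with the smallest unadjusted p are named, and, for chemokines spanning over 1 log2 unit, the 3 nearest profiles, passing over predicted genes and pseudogenes (1 of these is not reported here); marker genes, Ccr3, Cxcr2 and Ifng are given beside the results they belong to and were chosen after their values were seen. Same-numbered libraries had correlated deviations from their group means over genes (0.347, 0.349 and 0.834 for numbers 1, 2 and 3), so a fit with the number as a block was also made; the pairing comes from these correlations and the labels do not state it. Libraries of different number also correlated, AdIGF1RKO 1 with Flox 2 at 0.700 and AdIGF1RKO 2 with Flox 1 at 0.326, so whether the numbers pair mice is uncertain. Alternatives were other scalings, pseudocounts, filters and tests, and fits without single libraries.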

Additional observations from a re-analysis of the deposited data

How the results depend on the processing

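Of 169 estimates for the 10 chemokines under 17 alternatives, 153 kept their sign and 0 passed the adjusted threshold. Other filters and the block leave each estimate as it was, so their signs could not change and the count overstates stability. Ccl2, Ccl7 and Cxcl1 stayed positive throughout, at 0.88 to 1.56, 0.70 to 1.54 and 0.30 to 0.94; Cxcl1 was not tested at a mean of at least 5. Ccl8 and Ccl11 stayed negative throughout, at -0.40 (without Flox 3) to -0.061 (without Flox 1) and -0.29 (as deposited) to -0.0074 (equal sums); without single libraries Ccl11 was -0.25 (without Flox 3) to -0.058 (without Flox 1). On the deposited scale the median over all genes shifted to -0.17, and Ccl9 was -0.11, Cxcl9 -0.090 and Cxcl14 -0.023. With equal library sums, where that median was 0.09, Ccl6 was 0.015. Without both muscle-rich libraries Ccl9 was -0.18 and Cxcl9 -0.17, and with edgeR and DESeq2 Ccl9 was -0.019. Leaving out 1 library at a time gave -0.40 to 0.090 for Ccl6, -0.33 to 0.28 for Ccl9, -0.080 to 0.20 for Cxcl9, -0.031 to 0.46 for Cxcl10 and -0.010 to 0.29 for Cxcl14; the cause was not tested. The number of genes called was 25 with DESeq2, 0 to 1 without single libraries (1 without Flox 1), and 0 with the replicate number as a block, which changed no call (smallest adjusted p among the chemokines 0.914). With 3 libraries a group the 95% interval allowed a fold in scaled CPM + 1 of 1.18 to 4.56 for Ccl2. For Ccl7 it allowed 0.948 to 5.65 on the same scale, and Cxcl1 rested on 41 to 295 reads.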
